A study of Mus musculus with 3 samples.

Results

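Interleukin 2 and the receptors that share the common gamma chain are described here through 8 genes, chosen by name from the 50600 genes counted in each library: the ligand genes Il2, Il4 and Il21 and the receptor chain genes Il2ra, Il2rb, Il2rg, Il4ra and Il21r. RNA was sequenced from primary T-helper 1 (Th1) cells of C57BL/6NJ mice, which the name of the protocol says were differentiated from CD4+ T cells, in 3 libraries that form 1 group. The labels number them as biological replicates 1, 2 and 3 with a single donor entry, and give neither age nor the number of animals, so the spread between libraries may be technical in part. The file headers carry 24 hr without saying from when. There is therefore no second condition to compare with.

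Interleukin 2 is the growth factor that activated T cells make for themselves and for their neighbours. Its high-affinity receptor joins an alpha chain (Il2ra, CD25), which binds the cytokine but has little signalling tail, to a beta chain (Il2rb, CD122) and the common gamma chain (Il2rg, CD132). The gamma chain is also part of the receptors for interleukins 4, 7, 9, 15 and 21, and pairs with Il4ra and Il21r in the receptors of Il4 and Il21. The kinases Jak1 and Jak3 bind these chains and activate STAT factors: mainly Stat5a and Stat5b below interleukin 2, Stat6 below interleukin 4 and Stat3 below interleukin 21. Th1 cells are known for making interleukin 2 and interferon gamma, while Il4 marks Th2 cells and Il21 marks follicular helper cells.

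Of the 8 genes, 7 had an entry in RefSeq's promoter table (GRCm38.p6), and the stretch from 250 to 16 bases before the start is shown for the 3 ligand genes and Il2ra, whose counts stood at the extremes of the family. Capitals mark GGAAA on either strand, the core that NFAT factors bind in T cells and that ETS and NF-kappaB sites can also contain. Il2 (chr3:37125970-37126204, minus strand), Il4 (chr11:53618681-53618915, minus strand), Il21 (chr3:37232652-37232886, minus strand) and Il2ra (chr2:11642542-11642776, plus strand) read as follows.
Il2: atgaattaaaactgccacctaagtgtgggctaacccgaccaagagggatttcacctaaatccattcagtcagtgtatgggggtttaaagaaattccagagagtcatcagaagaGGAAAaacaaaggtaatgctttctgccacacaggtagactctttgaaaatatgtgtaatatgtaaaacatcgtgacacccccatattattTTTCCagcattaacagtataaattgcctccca
Il4: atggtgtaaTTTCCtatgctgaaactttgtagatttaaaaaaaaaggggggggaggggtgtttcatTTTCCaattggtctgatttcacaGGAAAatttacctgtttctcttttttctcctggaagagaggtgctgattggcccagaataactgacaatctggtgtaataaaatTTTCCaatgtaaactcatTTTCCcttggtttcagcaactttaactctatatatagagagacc
Il21: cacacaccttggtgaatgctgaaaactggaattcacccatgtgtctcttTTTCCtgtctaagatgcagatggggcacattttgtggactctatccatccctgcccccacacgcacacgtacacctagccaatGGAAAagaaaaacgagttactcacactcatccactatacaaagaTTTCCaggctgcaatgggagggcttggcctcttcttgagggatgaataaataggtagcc
Il2ra: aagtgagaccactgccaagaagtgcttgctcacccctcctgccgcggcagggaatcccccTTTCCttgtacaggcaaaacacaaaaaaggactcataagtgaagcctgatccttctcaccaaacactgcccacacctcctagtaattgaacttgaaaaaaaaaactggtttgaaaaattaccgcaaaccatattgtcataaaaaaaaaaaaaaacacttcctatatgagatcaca
The Il4 window held 5 matches, Il21 3, Il2 2 and Il2ra 1, while 53.3% of 32851 promoter windows of 235 bases held at least 1. Il4 has another RefSeq start, whose window (chr11:53617354-53617588) held 0 matches and is not printed. TGANTCA (the AP-1 motif), ATGCAAAT (the octamer) and TTCNNNGAA (the STAT5 motif), searched on both strands, had no match in these 4 windows. Among the windows not printed, that of Il4ra held 1 octamer match. GGAAA had 1 match each in the windows of Il2rg and Il4ra and 0 in that of Il21r. The AP-1, octamer and STAT5 motifs were present in 6.48%, 1.56% and 6.62% of all windows.

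Libraries held 3553547, 2945353 and 3369468 counts in replicates 1, 2 and 3. The limit that a count of 0 sets is 3 counts, and both this floor and the intervals below cover counting error only. Counting used a strand option, and genes were placed by their opposite-strand surroundings: overlapped (exon bases shared with an opposite-strand gene), spanned (inside such a gene's span, or holding part of it, but with separate exons), near (5000 bases or less from one) and isolated (the rest). The isolated class, 53.5% of genes, took 14.1%, 9.52% and 12.9% of the counts in replicates 1, 2 and 3. The overlapped class, 16.2% of genes, took 68.0%, 77.5% and 70.3%, so that replicate 2 had the lowest share on isolated genes and the highest on overlapped ones. No source used here gives the strand of the library kit, and whether the option matched it was not tested. If it did not match, the counts below are not a full measure of a gene's own mRNA, and for overlapped genes they may hold reads of the opposite gene. Genes named below as opposite to, or overlapping, another gene are of that kind, Il4ra and Il21 included, and the sources cannot be told apart.

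Il2 had the highest level of the family in every library. Il2 (ENSMUSG00000027720, mm10 chromosome 3, 37120523 to 37125959, 4 exons) had 825, 286 and 582 counts in replicates 1, 2 and 3. Its level per exon length was 379, 143 and 272 TPM (counts per exon length, scaled to the same total in each library), or 265 ± 118 TPM (SD, n = 3). Replicate 1 was the highest and replicate 2 the lowest, and all 3 libraries stood above every value of every other member. Il2 ranked 231 among protein-coding genes by mean TPM, above 98.9% of them. Isolated protein-coding genes were also mostly higher in replicate 1 than in replicate 2, by a median of 1.61 times per library total, as described below. In bulk RNA, fewer cells with a transcript and less transcript per cell cannot be told apart.

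The other ligand genes were close to the limit of counting. Il4 (ENSMUSG00000000869, chromosome 11, 53602982 to 53618669), which encodes the Th2 cytokine interleukin 4, had 6, 11 and 9 counts, with exact 95% Poisson intervals of 2.2 to 13.1, 5.49 to 19.7 and 4.12 to 17.1. Its level was 2.57, 5.13 and 3.93 TPM. Il4 was thus lowest in replicate 1 and highest in replicate 2, the reverse of Il2, but its 3 counting intervals overlapped. Cpa3, a mast cell and basophil gene, had 3, 12 and 4 counts and was also highest in replicate 2, while Mcpt8, Fcer1a and Kit, the other markers of those cells, were at 0 in each library; summed, the 4 markers stood at 1.04 to 4.52 TPM. The part of such cells in the Il4 count was not tested. Il21 (ENSMUSG00000027718, chromosome 3, 37222759 to 37232636), which encodes the cytokine of follicular helper cells, had 9, 1 and 3 counts, at or under the floor in replicates 2 and 3. Its level of 0.9, 0.109 and 0.305 TPM makes it the only member under 1 TPM.

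Il2ra stood highest among the receptor chains. Il2ra (ENSMUSG00000026770, chromosome 2, 11642807 to 11693193), the alpha chain that T cells add after activation, had 788, 462 and 711 counts and 72.6, 46.3 and 66.6 TPM. Il2rb (ENSMUSG00000068227, chromosome 15, 78480553 to 78495066), the beta chain shared with the interleukin 15 receptor, had 265, 140 and 164 counts and 50.1, 28.8 and 31.5 TPM. Replicates 2 and 3 were close to each other for Il2rb and replicate 1 stood above both, while for Il2ra replicate 3 was close to replicate 1. Il2rg (ENSMUSG00000031304, chromosome X, 101264378 to 101268255), the shared gamma chain, had 135, 66 and 94 counts and 29.8, 15.8 and 21.1 TPM. The chain that all these receptors need thus had a lower level per length than the alpha and beta chains of the interleukin 2 receptor in each library.

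The pair of receptor genes on chromosome 7 lies on the plus strand, with 23954 bases between them. Il21r (ENSMUSG00000030745, 125603429 to 125633570), the private chain of the interleukin 21 receptor, had 200, 125 and 211 counts and 31.7, 21.5 and 34 TPM. Il4ra (ENSMUSG00000030748, 125552120 to 125579474), the alpha chain of the interleukin 4 receptor, had 224, 97 and 162 counts and 19.6, 9.24 and 14.4 TPM. Il21r was highest in replicate 3 and Il4ra in replicate 1, and both were lowest in replicate 2. The receptor chains for interleukins 4 and 21 were therefore counted in every library at levels above those of their ligands.

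**Figure D1:**
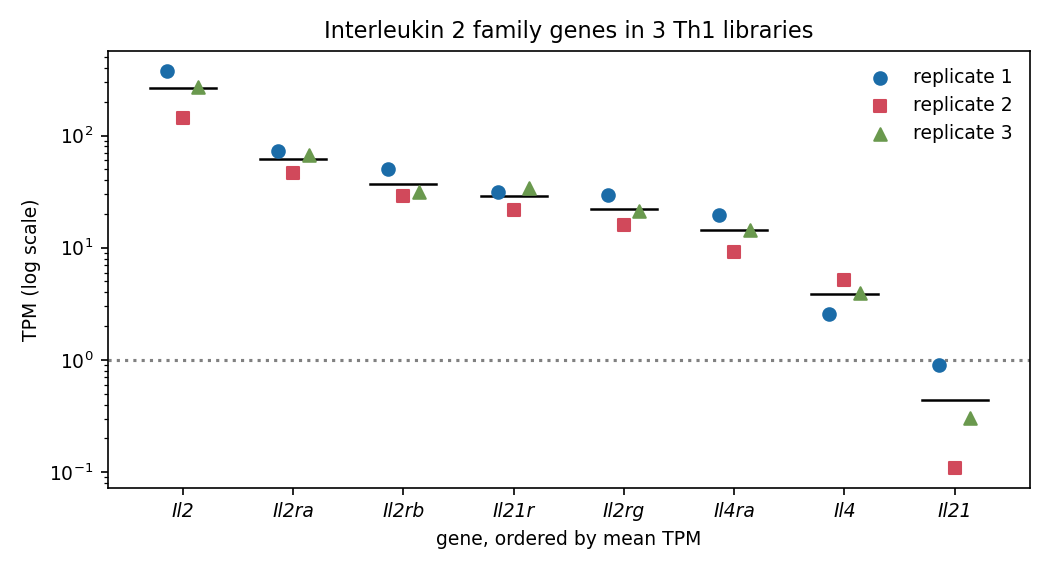
TPM on a log axis for the 8 genes, ordered by mean; symbols are the 3 libraries, bars the mean and the dotted line 1 TPM. Il2 stands above the rest at 143 to 379 TPM, 5 receptor chains lie between 9.24 and 72.6 TPM, and Il21 lies under 1 TPM.

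Ordered by mean TPM, the family ran Il2, Il2ra, Il2rb, Il21r, Il2rg, Il4ra, Il4 and Il21. Of the 7 pairs of neighbours in this order, 4 had ranges that overlap over the 3 libraries. These were all pairs among the receptor chains, from Il2ra down to Il4ra. The step from Il2 to Il2ra (4.28 times by the means), from Il4ra to Il4 (3.73 times) and from Il4 to Il21 had TPM ranges apart. The step from Il4 to Il21 rests on few counts. In replicate 1 Il21 had 9 counts and Il4 6, with overlapping Poisson intervals (4.12 to 17.1 and 2.2 to 13.1). Their order in TPM there comes from exon length, 5259 bases for Il21 and 1227 for Il4. Within libraries 6 of the 7 pairs kept their order in each one, and the exception was Il2rb and Il21r, where Il21r was the higher in replicate 3 only. A gene was called detected if no library fell below 1 TPM, and 7 of the 8 genes were, where 22.5% of all genes and 41.2% of protein-coding genes were. Mean levels were above 95.3% of protein-coding genes for Il2ra, 92.4% for Il2rb, 90.7% for Il21r, 88.5% for Il2rg and 84.1% for Il4ra.

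Ratios within a library do not depend on library size, and were taken as log2 of (TPM + 1) over (TPM + 1). Il2 to Il2ra, ligand to alpha chain, was 2.37, 1.61 and 2.01 in replicates 1, 2 and 3. Il2ra to Il2rb was 0.53, 0.67 and 1.06, and Il2rb to Il2rg was 0.73, 0.82 and 0.56. The alpha chain was thus 1.45, 1.61 and 2.11 times the beta chain in TPM, and the beta chain 1.68, 1.82 and 1.5 times the gamma chain. Il4ra to Il2rg was -0.58, -0.71 and -0.52, so that Il4ra was the lower in 3 of 3 libraries, while Il21r to Il2rg was 0.09, 0.42 and 0.66. No test was run on these ratios, because the smallest p of an exact sign test with 3 libraries is 0.25. Without division by exon length, Il2ra had more counts than Il2 in replicates 2 and 3, and Il4ra more than Il2rg in each library.

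Il2 also took a different share of the family's counts in each library. Of the summed counts of the 8 genes (2452, 1188 and 1936), Il2 held 33.6% (exact binomial 95% interval 31.8% to 35.6%) in replicate 1. It held 24.1% (21.7% to 26.6%) in replicate 2 and 30.1% (28.0% to 32.2%) in replicate 3. The interval of replicate 2 lies below both others, while those of replicates 1 and 3 overlap. The share of Il2ra moved the other way, with 32.1%, 38.9% and 36.7%. Shares of the same sum are not independent, and a lower share of Il2 by itself raises those of the other members. In TPM Il2ra was lowest in replicate 2, as Il2 was, with 72.6, 46.3 and 66.6 in replicates 1, 2 and 3. Il2rg stayed between 4.86% and 5.56% and Il4ra between 8.16% and 9.14% of the family.

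The Il4ra locus carries an antisense gene with far denser counts. Gm44876 (ENSMUSG00000108524, chromosome 7, 125570776 to 125572117, minus strand) has 670 exon bases, of which 571 are shared with Il4ra exons on the plus strand. In GENCODE M21 these bases lie in a longer form of Il4ra exon 7, and 44 of them are in the coding exon itself. That exon, number 7 of 11 (GRCm38 chr7:125571434-125571590, plus strand, 157 bases), is shown with the 44 shared bases in capitals, since these coding bases lie in exons of both genes.
Il4ra exon 7: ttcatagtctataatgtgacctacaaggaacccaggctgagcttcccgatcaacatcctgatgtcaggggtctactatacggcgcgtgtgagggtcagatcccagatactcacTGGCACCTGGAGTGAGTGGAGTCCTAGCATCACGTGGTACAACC
Gm44876 had 489, 547 and 551 counts, or 730, 816 and 822 counts per kb of exon, where Il4ra had 37.3, 16.2 and 27. Counts per kb on the antisense gene were thus 19.6, 50.5 and 30.5 times those on Il4ra in replicates 1, 2 and 3. The pair also differed in which library was high: replicate 2 had the lowest Il4ra count and, scaled by TMM (edgeR's trimmed mean of M values), the highest Gm44876 count (409, 692 and 521 scaled counts). Whether the counts on Gm44876 come from an antisense RNA or from Il4ra cannot be told apart in these files.

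Il2 has an opposite-strand gene as its neighbour too, without shared exon bases. Adad1 (ENSMUSG00000027719, chromosome 3, 37063527 to 37121930, plus strand), known as a testis gene, has a last exon of 123 bases inside the last Il2 intron, 590 bases from the last Il2 exon. It had 698, 535 and 590 counts over 13 exons, or 213, 164 and 180 per kb, where Il2 had 721, 250 and 509. The ratio of Adad1 to Il2 per kb was 0.3, 0.65 and 0.35, so that the neighbour came closest in replicate 2, where Il2 was lowest. The files do not show which Adad1 exons the counts lie on. Gm12534, opposite Il21 and with all its 469 exon bases shared, had 0 counts in each library.

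The other members had no opposite-strand exon on theirs. Foxo4, a transcription factor gene 3505 bases from Il2rg, had 178, 168 and 205 counts (28.6 ± 2.48 TPM), and Kif3a, a kinesin gene 1015 bases from Il4, had 9, 5 and 11. Gtf3c1, which encodes a subunit of an RNA polymerase III factor, lies 7384 bases from Il21r and had 297, 175 and 264 counts. Kctd17, 41644 bases from Il2rb, had 17, 11 and 21 counts, and Gm17490, 16543 bases from Il2ra, had 0. Il2ra, Il2rb and Il21r were the isolated members.

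**Figure D2:**
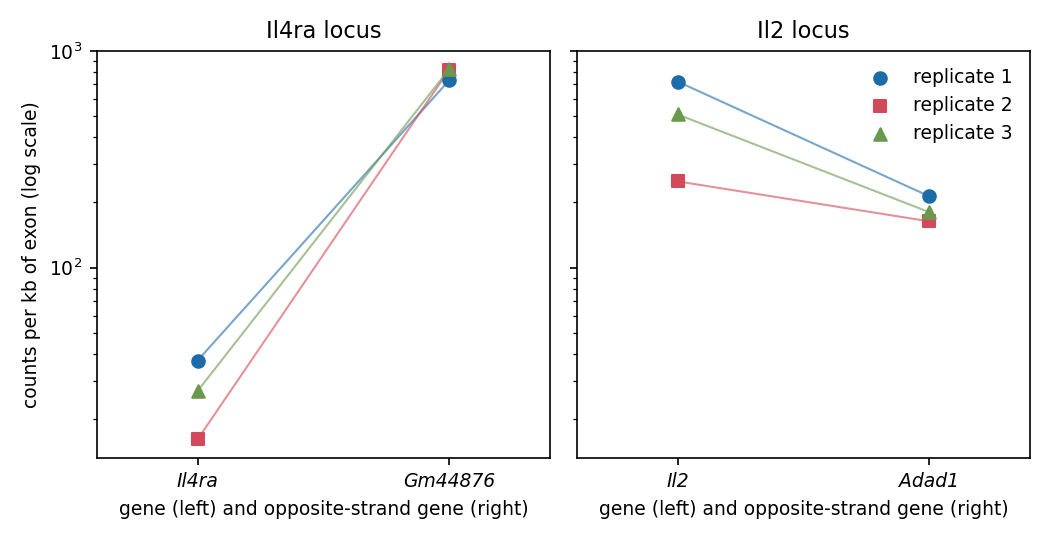
Counts per kb of exon on a log axis for Il4ra and its antisense gene Gm44876 (left) and for Il2 and its opposite-strand neighbour Adad1 (right); lines join the values of 1 library. Gm44876 stands 19.6 to 50.5 times above Il4ra, while Adad1 stands below Il2 in each library.

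Il2 differed between the libraries by more than counting error under each of the 4 scalings tried (total counts, TMM over all genes, TMM over isolated genes and DESeq2 size factors). Each gene's 3 counts were compared with Poisson error by a chi-square test at TMM-scaled library sizes, over 10216 genes with Benjamini-Hochberg adjustment. Scaled in this way Il2 had 690, 362 and 550 counts in replicates 1, 2 and 3, a 1.91-fold difference between the highest and the lowest (chi-square test, adjusted p = 2.05e-19). Il2rb, with 222, 177 and 155 scaled counts, passed as well (adjusted p = 0.00413), as did Il4ra with 187, 123 and 153 (adjusted p = 0.00651). Replicate 1 was the highest for these 3 genes, and the lowest was replicate 2 for Il2 and Il4ra and replicate 3 for Il2rb. Il2ra (adjusted p = 0.109), Il2rg (0.143) and Il21r (0.146) did not pass, which does not show that they were equal between libraries. Il4 and Il21 did not pass the filter on low counts. Without that filter both were tested and neither passed (chi-square test, adjusted p = 0.295 for Il4 and 0.231 for Il21), and 3 of 8 members did, against 19.3% of all genes. Thus 3 of 6 tested members passed, where 37.8% of all tested genes did (27.9% of isolated, 26.3% of spanned, 25.2% of near and 53% of overlapped ones), so that the count of members by itself is near the background. With DESeq2 size factors 3 of 6 passed (35.3% of all genes), and with total counts 6 of 6 (51.7%).

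Isolated genes were mostly higher in replicate 1 than in replicate 2, as most members were. Among 1472 isolated protein-coding genes with a mean of 50 counts or more, counts scaled by the library total (CPM) were higher in replicate 1 than in replicate 2 by a median of 1.61 times (5th to 95th percentile 1.09 to 2.31). Among 2285 overlapped ones the median was 1.13, with values on both sides of 1 (5th to 95th percentile 0.718 to 2.01). The same ratio was 2.39 for Il2, above 96.4% of the isolated genes, 1.91 for Il4ra, 1.7 for Il2rg, 1.57 for Il2rb, 1.41 for Il2ra and 1.33 for Il21r. The last 5 lay between percentiles 20.4 and 79.2 of the isolated genes. With library sizes taken by TMM over isolated genes alone, Il2 had 634, 410 and 528 scaled counts and still passed (chi-square test, adjusted p = 4.01e-09), at 1.54-fold between replicates 1 and 2. Il2rb passed with 204, 201 and 149 (adjusted p = 0.0126), where replicate 3 alone was low, and Il4ra did not (172, 139 and 147, adjusted p = 0.267). That leaves 2 of 6 members, against 34.1% of all tested genes (13.3% of isolated, 19.8% of spanned, 18.4% of near and 57.7% of overlapped ones). When isolated genes alone were tested and adjusted, 1 of 3 members passed, Il2rb (adjusted p = 0.0434), against 8.42% of those genes. Under this scaling Il2ra was at 605, 663 and 645 and Il21r at 154, 179 and 191, lowest in replicate 1.

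Leaving out a library changed the calls of Il2rb and Il4ra and not that of Il2. Il2 passed without replicate 1 (adjusted p = 8.26e-08), without replicate 2 (0.000821) and without replicate 3 (1.63e-19). Il2rb was lost without replicate 1 (0.424) and without replicate 3 (0.0982). Il4ra was lost without replicate 1 (0.208) and without replicate 2 (0.239). Members passing were 1 without replicate 1 (25.4% of all genes), 2 without replicate 2 (9.03%) and 2 without replicate 3 (38.4%). Calls over all genes were 3865 with the 3 libraries and 970 without replicate 2.

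**Figure D3:**
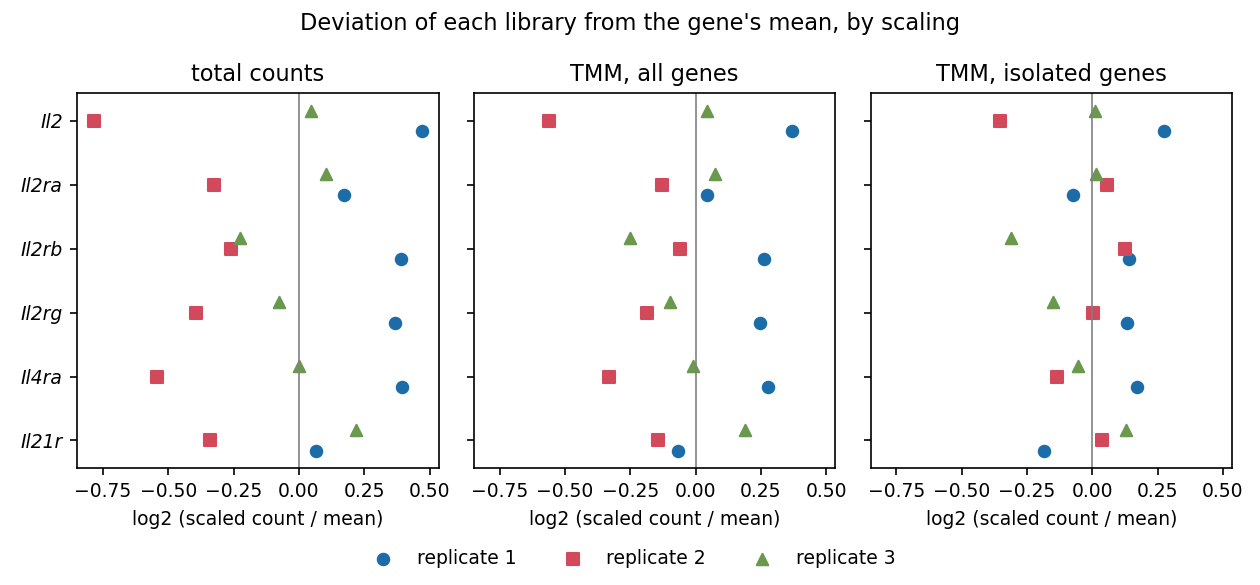
Deviation of each library from the gene's mean scaled count (log2) for the 6 tested members, with libraries scaled by total counts, by TMM over all genes and by TMM over isolated genes. Il2 keeps the order of replicates 1, 3 and 2 in all 3 panels. For Il2ra and Il21r replicate 1 lies above replicate 2 with total counts, closer to it with TMM over all genes, and below it with TMM over isolated genes.

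By a rule on the shape over libraries (the root mean square difference of log2 CPM deviations, 3 libraries, 5696 protein-coding genes with a mean of 50 counts or more), the genes nearest to Il2 were Ddias, Slc35a3, Foxn2, Traf1 and Slc4a7, at distances of 0.0051 to 0.015. Their counts followed replicates 1, 3 and 2 from high to low as those of Il2 did, for example 199, 70 and 143 for Traf1, an adaptor of TNF receptors, and 134, 46 and 95 for Ddias. With 3 libraries and a shift that many genes share, such closeness is a description of these libraries. Among the members with a mean of 50 counts or more, Il4ra was the nearest to Il2 (0.15) and Il21r the farthest (0.35). The median gene was at 0.32. Il4 (0.9) and Il21 (0.31) have means under 50 counts, so their distances rest on few counts.

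The ligand genes listed beside the family had almost no counts. Of Il7, Il9, Il13, Il15 and Tslp, none was detected: Il7, Il15 and Tslp had 0 counts in each library and Il9 and Il13 had 1 count each over the 3 libraries. Il13 lies 12654 bases from Il4 on the same strand. Of 6 other receptor chains 3 were detected. Crlf2, a chain of the receptor of Tslp, stood at 6.14 ± 3.73 TPM, Il7r, the interleukin 7 receptor chain of resting T cells, at 3.09 ± 0.731 TPM, and Il15ra, 12096 bases from Il2ra, at 2.68 ± 0.344 TPM. Il13ra2 was at 0. Il15ra thus had 26, 19 and 21 counts where its neighbour Il2ra had 788, 462 and 711, and the mean of each of these 3 chains was below that of Il4ra, the lowest receptor chain among the members.

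Signalling genes below the receptors were nearly all detected. All 4 JAK kinase genes were, led by Jak1 at 30.4 ± 9.29 TPM (its exons overlap Raver2), Jak2 at 28.2 ± 11.4 and Jak3, the kinase bound to the gamma chain, at 13.6 ± 4.65. All 5 STAT genes were detected, led by Stat6 at 50.7 ± 6.86 TPM (opposite Nab2), Stat5b at 17.2 ± 4.33 and Stat3 at 17.0 ± 0.468 (opposite Stat5a). Stat3 and Stat5a lie tail to tail and overlap at their ends. Of 7 adaptor genes 5 were detected, with the PI3 kinase subunit gene Pik3cd at 31.2 ± 10.6 TPM, Grb2 at 24.7 ± 7.34 and Pik3r1 at 6.07 ± 0.356. Of 6 inhibitor genes 5 were detected, with the phosphatase genes Ptpn6 at 152 ± 37.8 TPM (opposite Gm20531) and Ptpn2 at 26.4 ± 7.5. Cish, a feedback inhibitor that Stat5 induces, stood at 14.2 ± 3.3 TPM (opposite Gm17041).

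Targets of interleukin 2 signals and factors that act on the Il2 gene were mostly detected as well. Of 8 targets 7 were, led by Myc at 102 ± 26.7 TPM, Pim1, a survival kinase gene, at 47.0 ± 6.37 (opposite Gm26885) and Pim2 at 34.5 ± 11.5. Of 15 factors of the Il2 gene 13 were detected, led by the AP-1 genes Junb at 171 ± 22.2 TPM (opposite Prdx2) and Jund at 117 ± 18.3 (opposite Gm11175), and by Ikzf1, which encodes the repressor Ikaros, at 75.6 ± 22.6. Over the 8 lists 42 of 56 genes were detected and 4 were at 0, and 20 of the 56 are overlapped genes. By the same rule 41.2% of protein-coding genes and 22.5% of all genes were detected. Of all genes, with counts or without, 16.2% are overlapped, while among the 10216 genes that passed the filter on low counts 4362 are. Median mean TPM was 26.9 for targets, 20.9 for kinases, 17.4 for factors of the Il2 gene and 17.0 for STAT genes. It was 11.7 for inhibitors, 4.73 for adaptors, 1.44 for the other receptor chains and 0 for the other ligands, the members not included. The median was 0.413 over all protein-coding genes and 9.82 over the detected ones.

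Variation of these genes between libraries was near that of all genes. By the chi-square test 20 of 42 tested pathway genes passed (47.6%, against 37.8% of all tested genes). With library sizes from isolated genes 10 of 42 passed (23.8%, against 34.1%). Jak2 was among them under both scalings (adjusted p = 9.11e-07 and 0.00305), with 384, 154 and 252 counts. Jak3 passed under the first (0.0236) and not under the second (0.232), as did Myc (0.0127 and 0.788). Stat5a and Stat5b passed under neither.

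**Figure D4:**
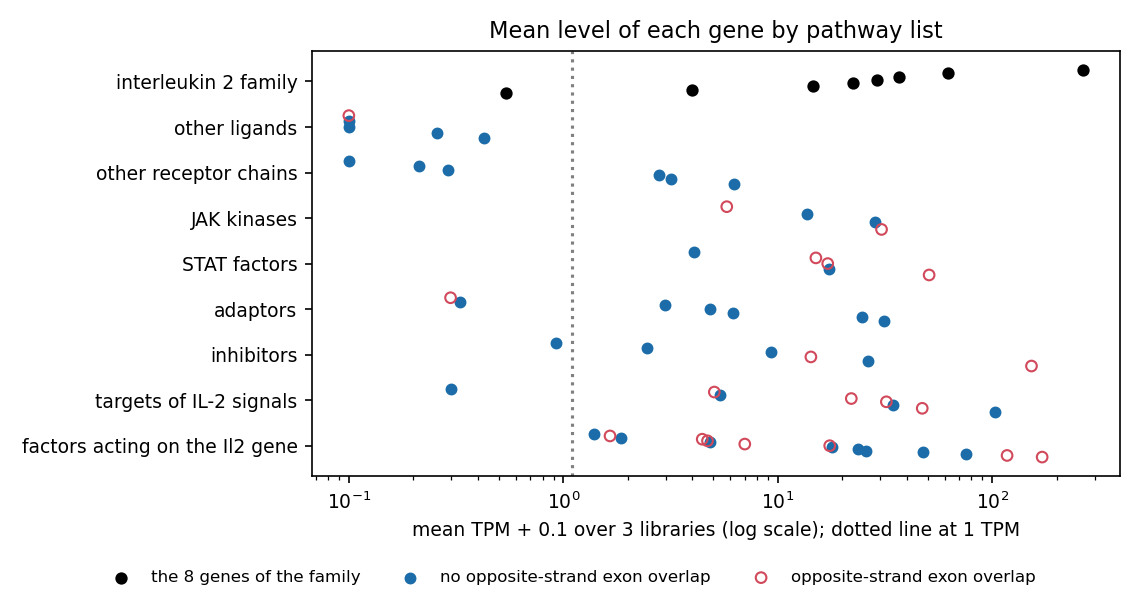
Mean TPM plus 0.1 on a log axis for the 8 members (black) and the 56 genes of 8 pathway lists; open symbols are genes whose exons overlap an opposite-strand gene, the members being shown without this distinction, and the dotted line is at 1 TPM. Kinases and STAT genes all lie to the right of the line and the other ligands all to the left.

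Markers of T cells were present and those of the Th1 lineage were low. All 7 T cell markers were detected, at a summed 301 to 527 TPM, lowest in replicate 2 as most members were. Of 6 Th1 markers 3 were detected (23 to 24.1 TPM in all), with Ifng at 2, 2 and 1 counts and Hlx at 0; Tbx21, which encodes T-bet, had 15, 11 and 8 counts. Il12rb2 (opposite Serbp1) and Stat4 held most of the Th1 sum, so that of the defining pair Ifng and Tbx21 the first was under the floor of 3 counts in each library. Th2 markers had 2 of 5 detected (53.2 to 61.2 TPM), both with exons that overlap an opposite-strand gene: Ptgdr2 at 53.3 TPM (opposite Ccdc86) and Gata3 at 4.49 TPM (opposite Gm13256), with Il5 and Ccr3 at 0. Regulatory T markers had 3 of 4 (184 to 224 TPM). Foxp3, opposite Ccdc22, gave 120 TPM, Il2ra 61.8 TPM and Ctla4 28.5 TPM, while Ikzf2 was not detected, with 6, 3 and 11 counts. Il2ra is itself a member of the family, so this sum is not independent of its level. CD8 T markers had 1 of 2 (7.87 to 13.1 TPM). Cd79a, a gene of B cells, had 19, 18 and 22 counts, and Ms4a1, another, was at 0. Macrophage markers had 1 of 4 (154 to 166 TPM, nearly all on Csf1r, opposite Hmgxb3, with Lyz2 and Cd14 at 0). NK markers had 0 of 4 (0.38 to 0.773 TPM, Ncr1, Klrb1c and Klre1 at 0) and dendritic markers 0 of 3 (0.124 to 0.336 TPM, Flt3 at 0). The part of regulatory T cells in the level of Il2ra was not tested.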

How the data were processed

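Gene counts of 3 Th1 libraries were analysed. Per the file headers, the authors made the deposited counts with featureCounts 1.4.6-p4 on exons of GENCODE M13 genes, for read pairs with both ends aligned and strand option 1. A directory name there carries the word stranded, and the build is mm10 per the labels. No source used here names the aligner.

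Exon length, in bases, was taken from the deposited files, where it stands beside the counts as another column. TPM and CPM were computed from both. Symbols came from GENCODE M21 by identifier (50376 of 50600 matched). Promoter windows came from RefSeq tables (GRCm38.p6) and the exon from GENCODE M21 transcripts. Depth was 2945353 to 3553547 counts, and 3 counts, the limit a count of 0 allows, are 0.844, 1.019 and 0.89 CPM.

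Variation was tested with a chi-square test (2 degrees of freedom) at TMM sizes after edgeR's filterByExpr, adjusted by Benjamini-Hochberg at 0.05 over 10216 genes. On simulated counts for this comparison (10216 genes, 200 changed) it recovered 16.5% of genes changed by 1.25-fold, 51.5% at 1.5-fold and 75.5% at 2-fold, so small differences are often missed. The simulated counts had Poisson error only, with the change in replicate 1. They therefore do not show how the test behaves with spread beyond counting error or with a shift that many genes share. The biological coefficient of variation (edgeR common dispersion) was 0.179 over all tested genes and 0.106 over isolated ones. Libraries differed pairwise in 970 to 3934 genes, so none was a copy.

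All 8 members are named. Of each pathway list the 3 genes with the highest mean TPM and those at 0 in all libraries are named, with the nearest opposite-strand gene of each member and the 5 genes nearest to Il2. Genes named beyond that were chosen after their values were seen. The members and lists were chosen with earlier results of these data known. The result of 1 marker list is not reported here. Alternatives were DESeq2 size factors, total counts, sizes from isolated genes, no filter, other TPM denominators, other thresholds and pseudocounts, and each library left out. Software was R 4.3.3, edgeR 4.0.16, DESeq2 1.42.0, Python 3.11.15, numpy 2.4.6, pandas 2.3.3 and scipy 1.17.1.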

Additional observations from a re-analysis of the deposited data

How the results depend on the processing

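Of 190 values recomputed under an alternative, 151 kept their side of the threshold or stayed within the spread between libraries. The summed mean TPM of the 8 genes was 433, and became 2148 with only non-overlapped genes in the denominator and 1146 with only protein-coding genes outside the mitochondrial genome, by construction. Without division by exon length the mean log2 ratios were -0.30 for Il2 to Il2ra and 0.67 for Il4ra to Il2rg, both reversed, and 1.78 for Il2ra to Il2rb, 0.93 for Il2rb to Il2rg, 0.86 for Il21r to Il2rg and 0.80 for Il4 to Il21, and 4 of 8 genes kept their rank. With a pseudocount of 0.1 Il4 to Il21 was 3.13, against 1.76 with 1. The share of Il2 in the family was 59.7% per kilobase, against 29.3% of counts. Members that varied were 3 of 6 tested (37.8% of all tested genes), and 6 with total counts (51.7%). Among isolated genes alone 1 of 3 tested passed (8.42% of those genes). With a library left out 1 to 2 passed, where 9.03% to 38.4% of all tested genes did. The log2 ratio of replicate 3 to replicate 2 for Il2rb was -0.19, and 0.034 with total counts, a setting chosen after seeing the data. With TMM over isolated genes this ratio went from 0.20 to -0.040 for Il2ra and from 0.089 to -0.15 for Il2rg. That of replicate 1 to replicate 2 went from 0.17 to -0.13 for Il2ra and from 0.080 to -0.22 for Il21r. These changes of sign were counted among the 151. Detection of 7 genes at 1 TPM, where 22.5% of all genes were detected, became 6 at 5 TPM or at 10 counts. The share of all genes at those other settings is not given here. Depth limits Il4 and Il21, which were tested only without the filter on low counts and did not pass there (adjusted p = 0.295 and 0.231). No paired analysis was possible because there is 1 group.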
